A study of Mus musculus with 12 samples.

Results

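The T cell receptor and coreceptor genes are described here as 10 genes, Cd3d, Cd3e, Cd3g, Trac, Trbc1, Trbc2, Tcrg-C1, Cd4, Cd8a and Gzmb, out of 35688 genes in the table. They were chosen by name: the rows of each gene were taken, repeated transcripts were dropped and the remaining transcripts were summed per gene identifier. All 10 were present. Their values are abundances of RNA in whole colon, so each one reflects every cell of the tissue that carries the transcript.

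A T cell recognises its target through a receptor made of a variable pair of chains, either alpha with beta or gamma with delta, held in the membrane with the signalling chains of the CD3 complex. Alpha-beta T cells read peptides on MHC molecules with the help of the coreceptors CD4 or CD8, while many gamma-delta T cells sit between the epithelial cells of the gut and need no classical MHC molecule. Granzyme B, the product of Gzmb, is a serine protease that cytotoxic T cells and natural killer cells deliver into target cells.

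The colons came from mice aged 2 weeks. The comparison was between 5 Il10-/- mice, which lack the anti-inflammatory cytokine interleukin 10, and 6 Il10-/- Tnfr1-/- mice, which lack it as well as TNF receptor 1. Both groups carry the Il10 deletion, and no wild-type colon was part of the series. RNA was isolated from the full thickness of the colon, with 1 animal per sample. The sources used here do not give the alleles, strain background or litter of the animals. Sample names begin with a digit from 1 to 4. A leading 1 is shared by 3 Il10-/- and 2 Il10-/- Tnfr1-/- mice, a leading 2 or 3 occurs in the double knockouts and a leading 4 in the Il10-/- mice. What the digit stands for is not given, and outside the names that begin with 1 it cannot be told apart from genotype.

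Library sums of the deposited abundances ran from 804109 to 1378971. They are not counts, so depth is unknown and no value carries a counting interval. Tnfrsf1a, which encodes TNF receptor 1, had a log2 fold change of -1.60 ± 0.22 (SE) in Il10-/- Tnfr1-/- relative to Il10-/- colons. All 12 genes of a colon epithelium list passed the filter on low values, and their summed abundance lay between 6473 and 51920 in every colon. Across the 13561 tested genes, limma (a moderated linear model) called 0 after Benjamini-Hochberg adjustment. Before adjustment, 643 genes (4.74%) were higher and 488 (3.6%) lower in the Il10-/- Tnfr1-/- group at a p under 0.05. The higher genes were 56.9% of these, against 75.1% with equal library totals, which shift the median of all genes from 0.05 to 0.19, 45.6% with median-ratio size factors and 41.3% with quantile normalization.

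Trbc1, Trbc2 and Tcrg-C1 are close copies of a neighbouring gene, which limits how far reads can be assigned to one of them. The following stretches are shown because they carry the bases by which reads of the copies can be told apart. They are coding sequence on mm10 with GENCODE release M21, read on the strand of the gene, and capitals mark the bases that differ within a pair. Trbc1 is shown from chr6:41539229-41539335 and Trbc2 from chr6:41547772-41547878, both on the plus strand. Tcrg-C1 is shown from chr13:19214193-19214312 on the plus strand and Tcrg-C2 from chr13:19307342-19307461 on the minus strand.
Trbc1: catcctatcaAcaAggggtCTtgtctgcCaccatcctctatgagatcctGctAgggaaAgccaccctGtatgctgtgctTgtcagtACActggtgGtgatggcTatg
Trbc2: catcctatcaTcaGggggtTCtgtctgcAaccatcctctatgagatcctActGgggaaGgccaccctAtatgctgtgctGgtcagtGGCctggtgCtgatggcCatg
Tcrg-C1: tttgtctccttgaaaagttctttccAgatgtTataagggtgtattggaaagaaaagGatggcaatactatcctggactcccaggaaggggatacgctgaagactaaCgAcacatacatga
Tcrg-C2: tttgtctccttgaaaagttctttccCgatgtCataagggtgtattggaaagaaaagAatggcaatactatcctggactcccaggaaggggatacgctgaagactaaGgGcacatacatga

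The beta constant genes had 15 differences in the 107 bases shown, but only 1 in the 375 coding bases of their first exon. Over the whole transcripts, 35.1% of the 75-base windows of Trbc1 and 37.7% of those of Trbc2 were present unchanged in the other gene, where 75 bases is the read length. How these reads were divided between Trbc1 and Trbc2 is therefore uncertain. The gamma constant genes had 5 differences in the 120 bases shown and 9 in the 330 coding bases of the first exon, and Tcrg-C1 shared 4.94% of its windows with Tcrg-C2 and 0 with Tcrg-C4. The delta constant gene Trdc and the alpha constant gene Trac shared 0 windows.

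RefSeq (GRCm38.p6) gave a promoter for Cd3d, Cd3e, Cd3g, Cd8a and Gzmb, 5 of the 10 genes. The 250 bases before the start of 4 of them are shown because the genes for the CD3 chains moved together from colon to colon and Gzmb did not follow them. Capitals mark AGGAAG or its reverse complement CTTCCT, an ETS-type motif, and TGTGGT or ACCACA, a RUNX motif. Cd3d is at chr9:44981536-44981785 (plus strand), Cd3e at chr9:45009612-45009861 (minus strand), Cd3g at chr9:44980432-44980681 (minus strand) and Gzmb at chr14:56262335-56262584 (minus strand).
Cd3d: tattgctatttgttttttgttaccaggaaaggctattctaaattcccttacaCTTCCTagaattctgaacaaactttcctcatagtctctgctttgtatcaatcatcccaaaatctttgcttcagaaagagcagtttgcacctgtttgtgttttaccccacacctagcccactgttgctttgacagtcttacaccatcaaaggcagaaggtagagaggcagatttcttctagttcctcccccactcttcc
Cd3e: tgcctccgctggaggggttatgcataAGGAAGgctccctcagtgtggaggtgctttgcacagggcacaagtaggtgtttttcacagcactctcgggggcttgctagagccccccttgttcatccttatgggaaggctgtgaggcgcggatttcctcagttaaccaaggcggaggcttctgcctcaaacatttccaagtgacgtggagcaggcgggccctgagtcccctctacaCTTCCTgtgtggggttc
Cd3g: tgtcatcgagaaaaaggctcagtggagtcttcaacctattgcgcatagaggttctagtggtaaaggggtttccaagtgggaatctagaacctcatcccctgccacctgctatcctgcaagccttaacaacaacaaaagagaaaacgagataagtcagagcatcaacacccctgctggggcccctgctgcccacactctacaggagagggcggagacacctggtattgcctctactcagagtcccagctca
Gzmb: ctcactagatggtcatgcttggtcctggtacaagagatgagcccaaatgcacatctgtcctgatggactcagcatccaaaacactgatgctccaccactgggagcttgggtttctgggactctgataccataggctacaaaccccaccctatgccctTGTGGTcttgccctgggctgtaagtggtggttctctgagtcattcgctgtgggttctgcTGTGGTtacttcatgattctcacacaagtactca

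The ETS-type motif occurred 1 time in the Cd3d window and 2 times in the Cd3e window, and it is present in 29.5% of 32851 RefSeq windows of this length. The RUNX motif occurred 2 times in the Gzmb window, and it is present in 14.0% of those windows. No marked motif overlapped another. The Cd3g window held neither motif. Cd3d and Cd3g lie back to back on chromosome 9, with their annotated starts 1355 bases apart on opposite strands. These matches describe letters in a window and say nothing of binding.

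The 10 genes had higher means in Il10-/- Tnfr1-/- than in Il10-/- colons, with log2 fold changes between 0.42 and 1.00 and a median of 0.78, beside a median of 0.05 over all tested genes. None passed the threshold: 0 of 10 had a limma adjusted p under 0.05, with values between 0.536 and 0.700. A positive log2 fold change was found for 56.4% of the 26147 genes with any value and 55.5% of those that passed the filter. Of the members, 6 passed the filter (a value over 1 in at least 5 samples), and Cd3e, Cd4, Cd8a and Gzmb did not; these 4 were fitted with every gene that had any value over 0. For no member did the 2 groups separate without overlap, whereas 0.31% of tested genes, and 0.264% of those with any value, lay wholly higher in Il10-/- Tnfr1-/-. Among the 5 colons whose names begin with 1, the members had log2 fold changes from 0.55 (Tcrg-C1) to 1.33 (Trac), with limma adjusted p-values of 0.9998 or more, and 3 colons against 2 cannot give an exact permutation p under 0.1. In whole tissue, more cells of a type and more RNA per cell cannot be told apart.

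**Figure D1:**
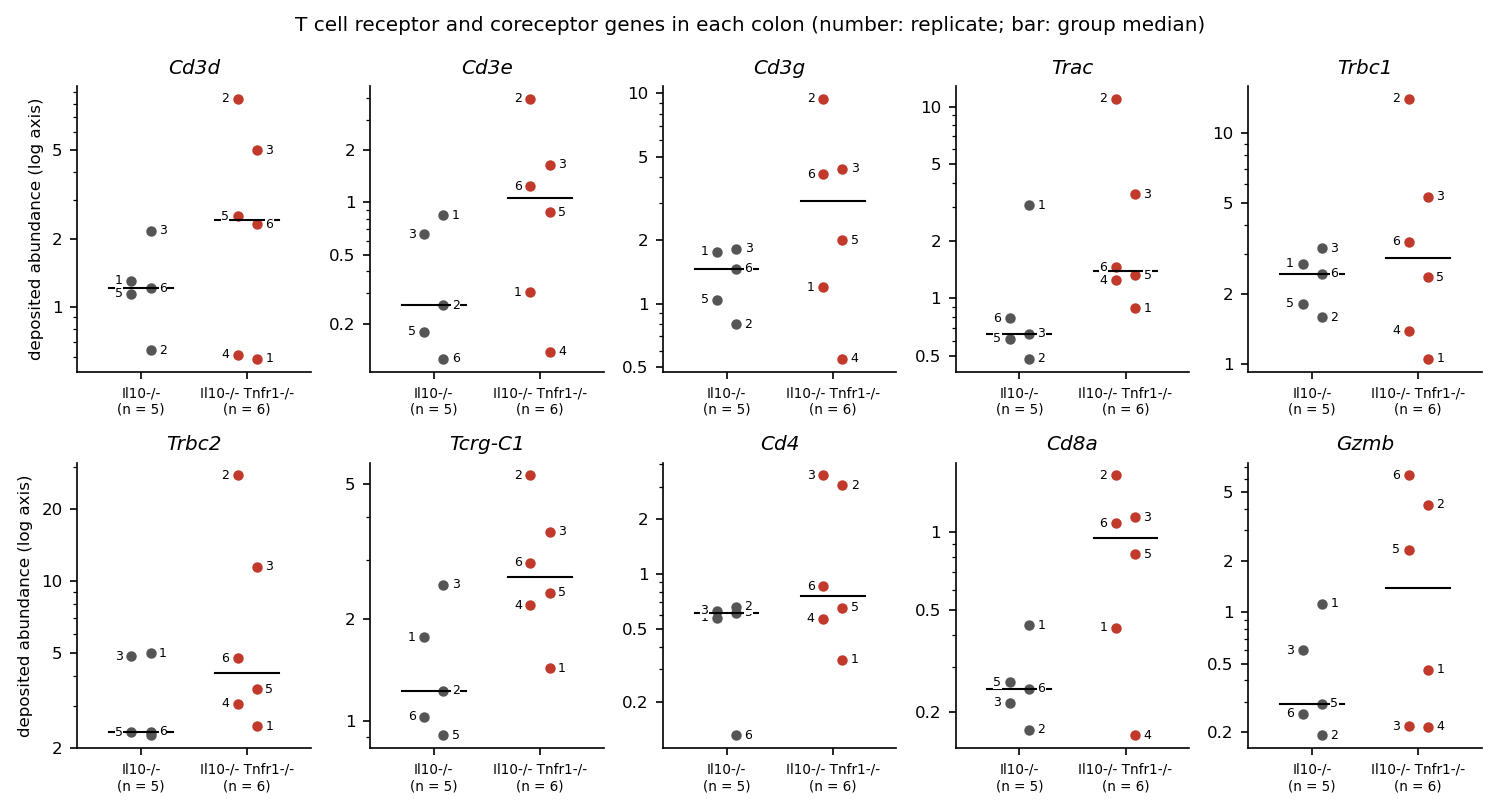
Deposited abundance (log axis) of the 10 genes in each colon, with one panel a gene, points numbered by replicate, Il10-/- (n = 5) in grey, Il10-/- Tnfr1-/- (n = 6) in red and a bar at the group median. Replicate 2 of the Il10-/- Tnfr1-/- group was the highest of the 11 colons for 8 genes, and the groups overlapped for every gene.

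By mean abundance over the 11 colons, Trbc2 was the most abundant member, at 6.33 ± 7.52 (SD), followed by Trbc1 at 3.58 ± 3.67, Cd3g at 2.60 ± 2.58, Cd3d at 2.36 ± 2.38, Tcrg-C1 at 2.31 ± 1.30 and Trac at 2.27 ± 3.05. Gzmb was at 1.47 ± 2.02, Cd4 at 1.05 ± 1.12, Cd3e at 0.929 ± 1.12 and Cd8a at 0.603 ± 0.503. No neighbours in this order differed by more than the larger of their SDs. The order was not the same within each genotype. Over the Il10-/- colons Tcrg-C1, at 1.50 ± 0.66 (SD), ranked above Cd3g at 1.38, Cd3d at 1.30 and Trac at 1.12. Over the Il10-/- Tnfr1-/- colons it averaged 2.98 ± 1.36 (SD) and ranked below Cd3g at 3.61, Cd3d at 3.24 and Trac at 3.22. These differences are smaller than the larger of the SDs. The abundances behave as values per transcript length, so levels can be set beside each other, within limits. How reads were divided between Trbc1 and Trbc2 is uncertain. Of the mean Cd3d signal, 52.8% was on a transcript of 299 bases that retains an intron.

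The CD3 genes encode signalling chains of the T cell receptor complex. Cd3d, the delta chain on chromosome 9 (44981786 to 44987339), was at 1.31, 0.641, 2.18, 1.15 and 1.21 in Il10-/- replicates 1, 2, 3, 5 and 6, and at 0.587, 8.41, 4.98, 0.611, 2.53 and 2.33 in Il10-/- Tnfr1-/- replicates 1 to 6. Its log2 fold change was 0.70 ± 0.52 (SE, limma adjusted p = 0.575), with an exact two-sided permutation p of 0.255. Replicates 2 and 3 of the Il10-/- Tnfr1-/- group stood highest, and replicates 1 and 4 of that group lay below every Il10-/- colon. Of the mean Cd3d signal, 52.8% was on a transcript of 299 bases that retains an intron and 44.4% on the coding transcript of 1617 bases.

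Cd3g, the gamma chain, was at 1.77, 0.801, 1.82, 1.05 and 1.47 in Il10-/- colons and at 1.20, 9.39, 4.37, 0.548, 2.01 and 4.13 in Il10-/- Tnfr1-/- colons (log2 fold change 0.78 ± 0.50 SE, limma adjusted p = 0.541). Cd3e, the epsilon chain, was at 0.845, 0.255, 0.656, 0.180 and 0.125 against 0.303, 3.95, 1.65, 0.138, 0.876 and 1.24 (0.79 ± 0.46 SE, limma adjusted p = 0.693). Both were highest in replicate 2, followed by replicate 3 and then replicate 6, while replicate 4 lay within or below the range of the Il10-/- colons. Cd247, the zeta chain, which is no member, averaged 0.523 ± 0.436 (SD) over the 5 Il10-/- colons and 1.47 ± 1.18 (SD) over the 6 Il10-/- Tnfr1-/- colons.

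The alpha-beta constant genes, too, were highest in Il10-/- Tnfr1-/- replicates 2 and 3. Trac, the constant part of the alpha chain on chromosome 14, was at 3.06, 0.483, 0.651, 0.616 and 0.787 in Il10-/- colons. It was at 0.887, 10.96, 3.49, 1.24, 1.32 and 1.45 in Il10-/- Tnfr1-/- colons. Its log2 fold change was 0.93 ± 0.54 (SE, limma adjusted p = 0.537), with an exact permutation p of 0.152. Apart from Il10-/- replicate 1, which ranked between Il10-/- Tnfr1-/- replicates 6 and 3, all 6 Il10-/- Tnfr1-/- colons lay above the other Il10-/- colons.

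Trbc2, the more abundant of the beta constant genes on chromosome 6, was at 4.99, 2.27, 4.85, 2.33 and 2.34 in Il10-/- and at 2.47, 27.6, 11.4, 3.07, 3.53 and 4.74 in Il10-/- Tnfr1-/- colons (0.83 ± 0.53 SE, limma adjusted p = 0.544). Trbc1 was at 2.72, 1.59, 3.17, 1.82 and 2.46 against 1.05, 14.1, 5.31, 1.39, 2.37 and 3.39 (0.42 ± 0.49 SE, limma adjusted p = 0.700). Trbc1 had the smallest difference of the members, with replicates 1 and 4 of the Il10-/- Tnfr1-/- group below every Il10-/- colon. The ratio of Trbc2 to Trbc1 was between 0.952 and 1.84 in Il10-/- and between 1.40 and 2.35 in Il10-/- Tnfr1-/- colons, which overlap.

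The gamma constant gene Tcrg-C1 differed by a similar amount but was spread more evenly over the colons. It was at 1.77, 1.23, 2.53, 0.910 and 1.03 in Il10-/- and at 1.44, 5.31, 3.62, 2.20, 2.40 and 2.94 in Il10-/- Tnfr1-/- colons. Its log2 fold change of 0.78 ± 0.31 (SE) came with an unadjusted limma p of 0.0253, an adjusted p of 0.536 and an exact permutation p of 0.0346. All but replicate 1 of the Il10-/- Tnfr1-/- colons lay above 4 of the 5 Il10-/- colons, and replicate 3 of Il10-/- overlapped them. Without Il10-/- Tnfr1-/- replicate 2 the difference was 0.61.

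Of the gamma-delta constant genes that are no members, Tcrg-C2 averaged 0.623 ± 0.0728 (SD) over the Il10-/- and 1.24 ± 0.587 (SD) over the Il10-/- Tnfr1-/- colons, with a log2 fold change of 0.56 ± 0.24 (SE, limma adjusted p = 0.693). Trdc, the delta constant gene, was at 0.225 ± 0.105 and 0.386 ± 0.300, a log2 fold change of 0.24. Tcrg-C4 had a log2 fold change of 0.39, and Tcrg-C3 was listed at 0 in 8 of the 11 colons. Over the 5 genes the sum was 3.24, 2.37, 3.87, 2.07 and 2.10 in Il10-/- colons and 2.63, 9.30, 6.34, 3.15, 4.25 and 6.26 in Il10-/- Tnfr1-/- colons. For this sum, Tcrg-C1 and Tcrg-C2, replicates 2, 3 and 6 of the Il10-/- Tnfr1-/- group were the 3 highest colons, while for Trdc an Il10-/- colon ranked between them.

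No difference between the genotypes beyond the spread of the colons was found for the contrast of alpha-beta with gamma-delta. As log2(Trac + 0.5) minus log2(Tcrg-C1 + 0.5), one value a colon, it averaged -0.43 ± 0.76 (SD) over the 5 Il10-/- colons and -0.28 ± 0.67 (SD) over the 6 Il10-/- Tnfr1-/- colons, a difference of 0.15 with an exact permutation p of 0.729. Among the names that begin with 1, the difference was 0.77, with an exact permutation p of 0.4, where 0.1 is the smallest possible. The other pairs of an alpha-beta and a gamma-delta gene differed by 0.05 (Trbc2 minus Tcrg-C1) and 0.59 (Trbc2 minus Trdc), and the pair Trac minus Trdc by 0.69. Over the 4 pairs the adjusted exact permutation p was between 0.550 and 0.900. The ratio of Trac to Tcrg-C1 was highest in Il10-/- Tnfr1-/- replicate 2, at 2.06, and next highest in Il10-/- replicate 1, at 1.73. It was between 0.258 and 0.962 in the other 9.

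**Figure D2:**
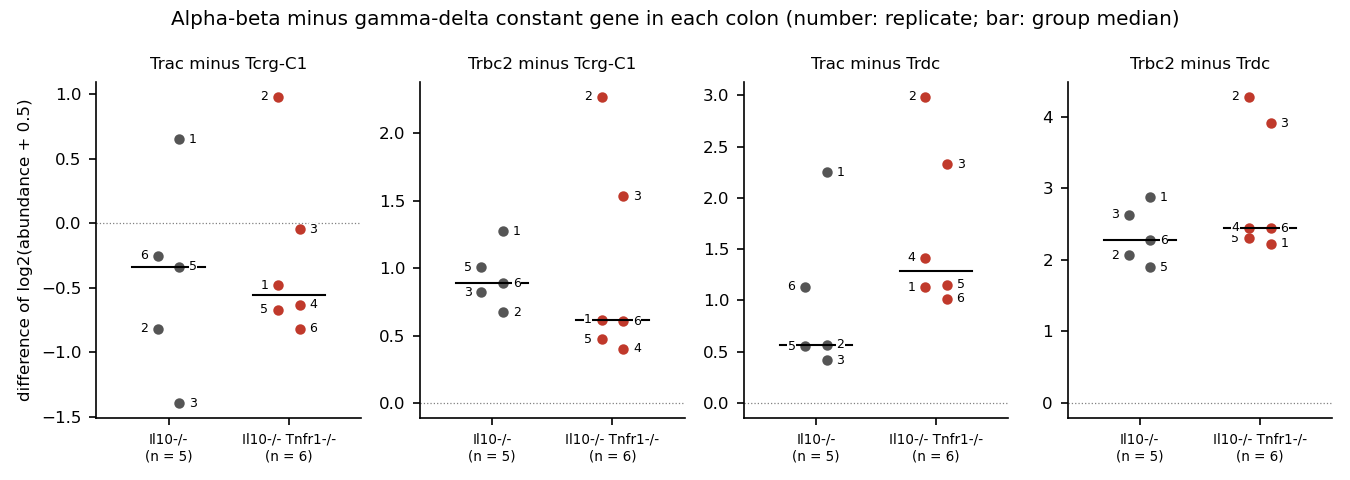
Difference of log2(abundance + 0.5) between an alpha-beta and a gamma-delta constant gene in each colon, in 4 panels for the 4 pairs, with Il10-/- in grey, Il10-/- Tnfr1-/- in red, replicate numbers beside points and a bar at the median. Replicate 2 of the Il10-/- Tnfr1-/- group was highest in each panel, and the groups overlapped.

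The coreceptor genes had lower means than Trac, Trbc1, Trbc2 and Tcrg-C1. Cd4, which marks helper and regulatory T cells and also some myeloid cells, was at 0.577, 0.662, 0.629, 0.613 and 0.131 in Il10-/- colons and at 0.339, 3.07, 3.47, 0.569, 0.653 and 0.858 in Il10-/- Tnfr1-/- colons (log2 fold change 0.72 ± 0.42 SE, limma adjusted p = 0.693). Replicates 2 and 3 of the Il10-/- Tnfr1-/- group stood far above the other 9. Cd4 was the member with the largest share of its group sum in those colons after Trac and Trbc2, at 73.0%.

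Cd8a, the alpha chain of CD8, was at 0.435, 0.171, 0.218, 0.261 and 0.247 in Il10-/- colons and at 0.426, 1.66, 1.14, 0.163, 0.822 and 1.08 in Il10-/- Tnfr1-/- colons. Its log2 fold change was 0.76 ± 0.28 (SE), with an unadjusted limma p of 0.0197, an adjusted p of 0.693 and an exact permutation p of 0.0411. Replicates 2, 3, 5 and 6 of the Il10-/- Tnfr1-/- group lay above all Il10-/- colons, and replicate 4 lay below them. Cd8a and Tcrg-C1 were the 2 of 10 members with an unadjusted limma p under 0.05, and 3.3% of all genes with any value were higher at that p.

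CD8 on conventional T cells is a pair of an alpha with a beta chain, while many intraepithelial T cells carry alpha chains alone. Cd8b1, the beta chain gene and no member, was at 0.289, 0.125, 0.103, 0.0355 and 0.129 in Il10-/- and at 0.0300, 1.98, 1.00, 0.0422, 0.0986 and 0.243 in Il10-/- Tnfr1-/- colons. The ratio of Cd8a to Cd8b1 was 1.50, 1.37, 2.12, 7.36 and 1.91 in Il10-/- colons and 14.2, 0.842, 1.14, 3.87, 8.34 and 4.45 in Il10-/- Tnfr1-/- colons. In replicates 2 and 3 of the latter group Cd8b1 was about as abundant as Cd8a, and in the other 4 Cd8a exceeded it by 3.87-fold or more. Ratios with so low a Cd8b1 carry a large error that cannot be put in numbers here.

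**Figure D3:**
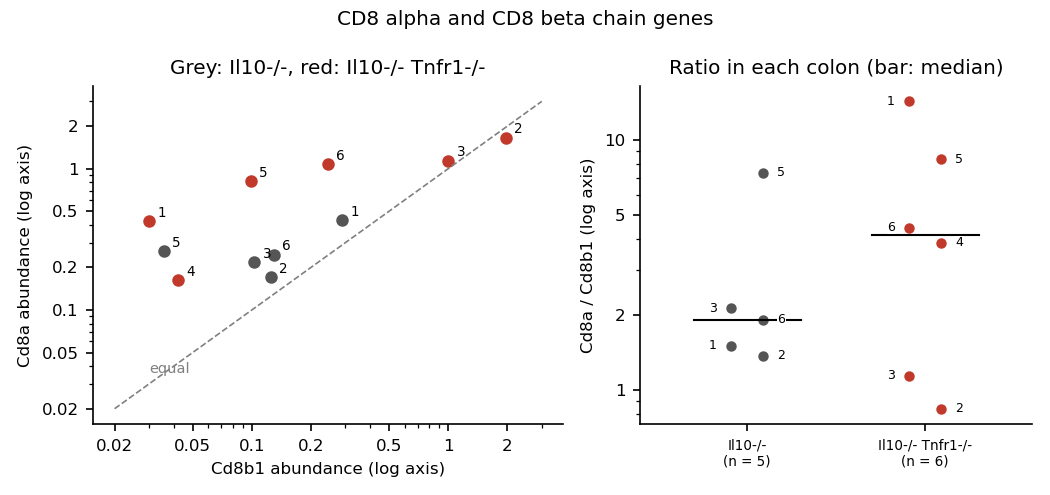
Left, Cd8a against Cd8b1 abundance in each colon (both axes log, dashed line equal abundance). Right, their ratio by genotype, with points numbered by replicate and a bar at the median. Replicates 2 and 3 of the Il10-/- Tnfr1-/- group lay nearest the line, and its replicates 1 and 5 had the highest ratios, 14.2 and 8.34.

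Gzmb was at 1.12, 0.192, 0.599, 0.293 and 0.256 in Il10-/- colons and at 0.460, 4.22, 0.217, 0.215, 2.31 and 6.27 in Il10-/- Tnfr1-/- colons (log2 fold change 1.00 ± 0.62 SE, limma adjusted p = 0.693, exact permutation p = 0.182). It was high in replicates 2, 5 and 6 and low in replicates 1, 3 and 4 of that group. Replicates 2, 5 and 6, picked because they were the highest of the group, held 93.5% of its summed Gzmb. An even spread gives 50.0%, which colons picked in this way exceed by choice. Of the cytotoxic granule list, 5 of 11 genes were tested: all 5 had a positive log2 fold change, with a median of 0.88, and 0 were called. Gzma, another granule protease, was at 0.925 to 1.93 in Il10-/- colons and at 1.79, 13.3, 1.19, 0.548, 10.03 and 20.9 in Il10-/- Tnfr1-/- colons, again highest in replicates 2, 5 and 6. The ratio of Gzmb to Cd3g was between 0.174 and 0.633 in Il10-/- colons, 1.15 and 1.52 in Il10-/- Tnfr1-/- replicates 5 and 6, and 0.0496 in replicate 3.

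Over all 11 granule genes, fitted with every gene that had a value, 10 were positive and the median was 0.30. The exception was Gzmm, another granzyme, named after its values were seen, at -0.41 ± 0.20 (SE, limma adjusted p = 0.693). Serpinb9, a granzyme inhibitor, had a log2 fold change of 0.88 ± 0.27 (SE, limma adjusted p = 0.536). Srgn, the proteoglycan of the granule, had 1.08, and Nkg7, a granule membrane protein, 0.45. Prf1, the pore-forming perforin, was under the filter, at no more than 0.173 in any colon.

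The members differed in which colons carried them, and the B cell genes were highest in the same colons as most of them. The summed abundance of 12 B cell genes, such as Ms4a1, was 185.1 in Il10-/- Tnfr1-/- replicate 2 and 96.7 in replicate 3. It was 35.2 in Il10-/- replicate 1 and between 4.06 and 10.1 in the other 8 colons. Genes of the lymphoid follicle stroma and its lymphocytes, such as Cxcl13 and Ccl21a, summed to 169.6 and 133.5 in these replicates 2 and 3 and to between 7.52 and 45.4 in the other 9. All 12 B cell genes had a positive log2 fold change, and Ighm, the one that passed the filter, had 1.04 ± 0.86 (SE, limma adjusted p = 0.605). The part of these cells in the difference of the members was not tested.

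**Figure D4:**
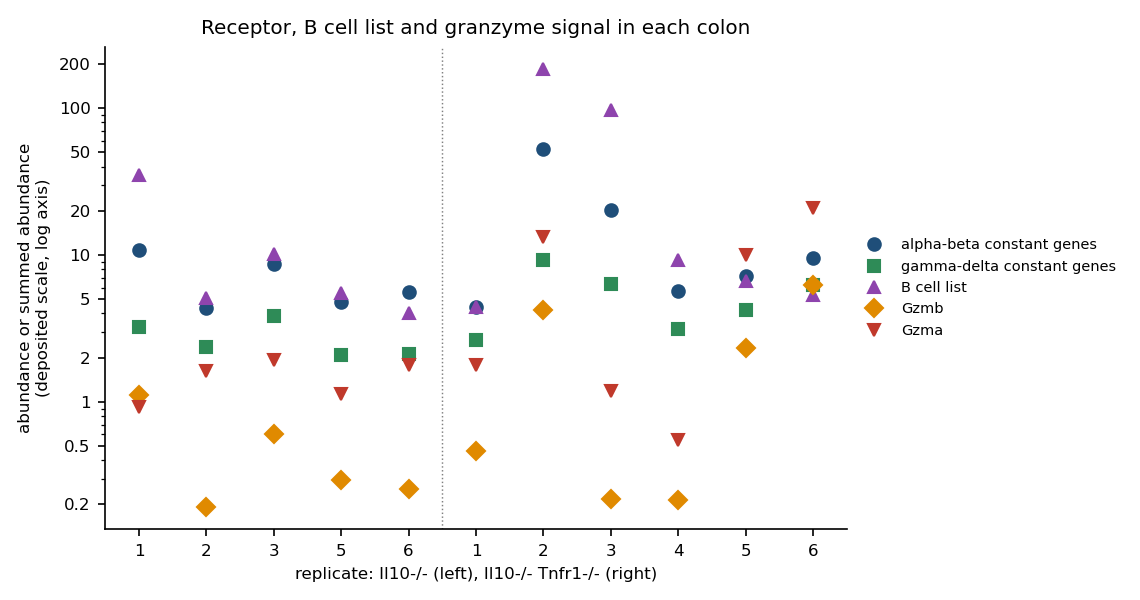
Summed abundance of the alpha-beta constant genes, the gamma-delta constant genes and the B cell list, with Gzmb and Gzma alone, in each colon (log axis; Il10-/- left, Il10-/- Tnfr1-/- right, by replicate). The B cell and alpha-beta sums peak in Il10-/- Tnfr1-/- replicates 2 and 3, at 185.1 and 96.7 and at 52.6 and 20.2, while Gzmb and Gzma peak in replicate 6.

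Replicates 2 and 3 held 74.7% of the summed Trac of the Il10-/- Tnfr1-/- group, 73.9% of Trbc2, 70.3% of Trbc1, 68.9% of Cd3d, 68.6% of Cd3e and 63.6% of Cd3g, where an even spread gives 33.3%. The share was 49.9% for Tcrg-C1, 52.9% for Cd8a and 32.4% for Gzmb. Both colons were picked after their values were seen, and they were the highest of the group for every member but Gzmb. Shares over 33.3% therefore follow in part from that choice. The fits were repeated without both colons, a choice also made after their values were seen. For the members highest in them, leaving them out lowers the difference by construction. The log2 fold change then was 0.05 for Cd3d, 0.27 for Cd3e, 0.22 for Cd3g, 0.27 for Trac, 0.08 for Trbc2 and 0.13 for Cd4, and it changed sign for Trbc1, at -0.22. It was 0.49 for Tcrg-C1, 0.48 for Cd8a and 1.01 for Gzmb. With Il10-/- replicate 1, the next highest in B cell genes, also left out, it was 0.60 for Trac, 0.43 for Cd3e, 0.23 for Trbc2, 0.29 for Cd3g, 0.15 for Cd4, 0.07 for Cd3d and -0.17 for Trbc1. Trac then had a limma p of 0.0396 before and 0.436 after Benjamini-Hochberg adjustment. In the same fit the value was 0.55 for Tcrg-C1, 0.56 for Cd8a and 1.21 for Gzmb. Without Il10-/- Tnfr1-/- replicate 2 alone, the values were 0.37 for Cd3d, 0.48 for Cd3e, 0.45 for Cd3g, 0.51 for Trac, 0.03 for Trbc1 and 0.41 for Trbc2. Without replicate 6 of that group, Gzmb was at 0.63.

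**Figure D5:**
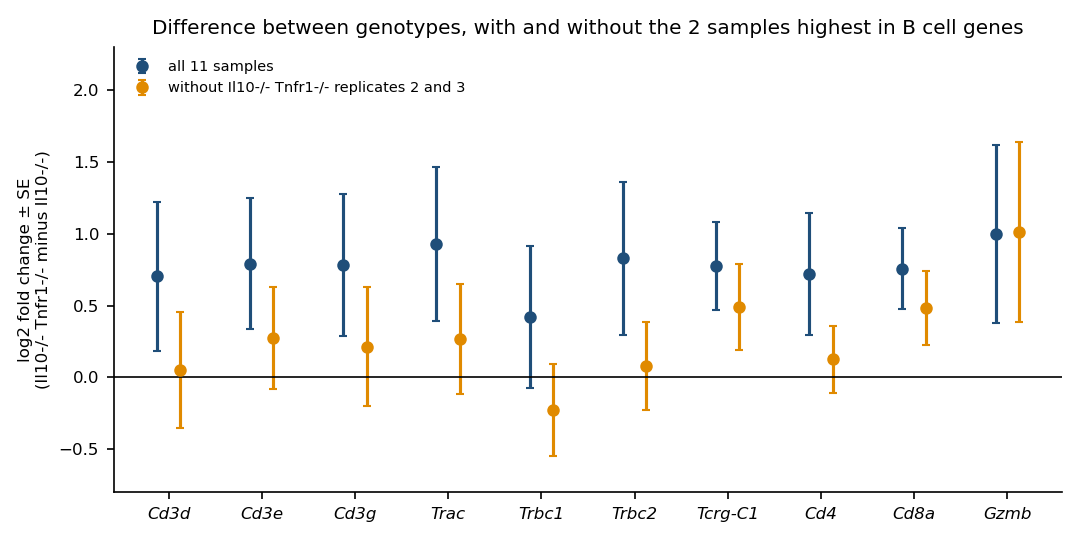
Log2 fold change with its SE (limma) of each gene, Il10-/- Tnfr1-/- minus Il10-/-, from all 11 colons (blue) and without Il10-/- Tnfr1-/- replicates 2 and 3 (orange). These colons were chosen after seeing the data and were the highest of their group for every gene but Gzmb. The orange points of Cd3d, Trbc2 and Cd4 lie at 0.05, 0.08 and 0.13, and that of Gzmb stays at 1.01.

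Of 26 genes of proximal signalling, the kinases and adaptors that relay receptor engagement, 11 were tested: 6 had a positive and 5 a negative log2 fold change, with a median of 0.28, and 0 were called. Including those under the filter, 21 of the 26 were positive, with a median of 0.39. Lcp2, the adaptor SLP-76, had 0.87 ± 0.42 (SE, limma adjusted p = 0.536), Ptprc, the phosphatase CD45 of all leukocytes, had 0.97, and Fyn, a kinase, had 0.59. Of 8 tested lineage transcription factors, 7 were positive and 1 negative, with a median of 0.33, and 13 of the 15 present were positive, with a median of 0.17. Satb1 had 1.06, Ets1 1.02, Tcf7 0.93 and Id2 0.50. Satb1, Id2 and Fyn were highest in Il10-/- Tnfr1-/- replicate 4. That colon was the lowest in Cd3g, at 0.548, and its summed abundance of smooth muscle genes was 7177. Id2 was at 21.88 or more in every colon. The values of Satb1, Id2 and Fyn therefore do not stand for T cells alone. Ets1, Tcf7 and Lcp2 were highest in replicate 3 of that group and Ptprc in replicate 2.

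A list of 20 genes named for intraepithelial lymphocytes had 9 tested genes. All 9 were positive, with a median of 0.68, and 4 had an unadjusted limma p under 0.05, although 0 were called. Over all tested genes, 55.5% were positive and 4.74% were higher at that p. Of the 19 list genes in the table, 18 were positive, with a median of 0.54. The tested genes include Tmigd1, at 487.8 in Il10-/- Tnfr1-/- replicate 6, the colon also highest in the epithelial gene Car1. The counts therefore do not stand for lymphocytes alone. Cd7 had a log2 fold change of 1.17, and Jaml, an adhesion receptor of intraepithelial lymphocytes, had 0.70. Klrd1, an NK-type receptor chain, had 0.68 and Ccl5, a chemokine of effector T cells, had 1.27 ± 0.49 (SE, limma adjusted p = 0.536). Ccl5 was at 2.44, 2.10, 3.93, 2.72 and 2.21 in Il10-/- and at 2.97, 16.0, 8.40, 1.76, 8.67 and 17.2 in Il10-/- Tnfr1-/- colons, high in replicates 2, 3, 5 and 6. Of 10 tested epithelial partners of gamma-delta T cells, 7 were positive and 3 negative (median 0.26), and 8 of all 12 were positive (median 0.14). Among the tested were the butyrophilin-like genes Btnl1, at 1.81 ± 0.89 (SE, limma adjusted p = 0.536), Btnl6 at 0.73 and Btnl4 at 0.36, and Il15ra at -0.28. Btnl1 was at 0.063 in Il10-/- replicate 1, a low value that adds to its difference. It was at 7.97 to 22.2 in the other Il10-/- colons and at 4.59 to 75.8 in Il10-/- Tnfr1-/- colons.

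No marker of another cell type passed the adjusted threshold, and the lists gave the following values. Among all tested genes, 55.5% were positive and 4.74% were higher at an unadjusted limma p under 0.05. All 10 tested smooth muscle genes were positive, with a median log2 fold change of 1.79 and 9 at that p. Their sum was between 185.2 and 3506 in Il10-/- and between 829.0 and 8021 in Il10-/- Tnfr1-/- colons, highest in replicates 3 and 4 of that group. Of the 12 epithelial genes, 3 were positive and 9 negative, with a median of -0.13. All 10 tested macrophage and dendritic cell genes were positive (median 0.36), with C1qc at 0.61. Of 12 natural killer and innate lymphoid genes, 2 were tested, and Ncr1, a defining receptor of natural killer cells, reached at most 0.276. Of the 8 mast cell genes, the 2 tested, Mcpt1 and Mcpt2, were at -0.14 and -0.15. The plasmacytoid list had 2 positive and 2 negative tested genes (median 0.01). Of the thymocyte and precursor list, 2 of 8 genes were tested, Rmnd5a at 0.44 ± 0.14 (SE, limma adjusted p = 0.536) and Cd1d1 at -0.24. For Rmnd5a all 6 Il10-/- Tnfr1-/- colons lay above the Il10-/- colons, as for 0.31% of tested genes. Rmnd5a was at 17.7 to 28.6 in Il10-/- and at 29.9 to 34.4 in Il10-/- Tnfr1-/- colons, far above the other precursor genes of the list. Its value therefore does not stand for precursor cells alone. Ptcra, under the filter, had -0.60 ± 0.20 (SE, limma adjusted p = 0.693). Rag1 was listed at 0 in every colon. The part of these cells in the difference of the members was not tested.

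Variable segments, the parts of a receptor gene that differ between T cell clones, were mostly listed at 0. Of 128 alpha variable segments, 12, 13, 10, 1 and 7 had a value in Il10-/- colons and 8, 39, 25, 16, 13 and 13 in Il10-/- Tnfr1-/- colons. Of 35 beta variable segments, 19, 3, 5, 5 and 1 had a value in Il10-/- colons and 2, 19, 18, 7, 2 and 7 in Il10-/- Tnfr1-/- colons. Most segments were seen in replicates 2 and 3 of the latter group, and Il10-/- replicate 1 had as many beta segments as replicate 2. Of 7 gamma variable segments, 0 to 3 had a value in an Il10-/- colon and 2 to 6 in an Il10-/- Tnfr1-/- colon. All 84 joining and diversity segments were at 0.

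The genes whose pattern over the 11 colons was most like the mean log2 value of Cd3d, Cd3e and Cd3g, out of 12325 tested genes, were Cd52 (Pearson r = 0.95), Gimap3 (0.95), Ccl17 (0.94), Ptpn22 (0.92), Il10ra (0.92), Selplg (0.92), Acap1 (0.91) and Ciita (0.91). Without Il10-/- Tnfr1-/- replicates 2 and 3, the 2 colons farthest from the median, r was between 0.71 and 0.90. Spearman rho over all 11 was between 0.75 and 0.97. All points share their library, and the values are given as a description. Cd52, a surface glycoprotein of lymphocytes, was at 12.2 to 33.7 in Il10-/- and at 13.6 to 149.4 in Il10-/- Tnfr1-/- colons.

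In the authors' deposited table, the main coding or constant-region transcript of each member had a log2 fold, from 0.62 for Cd3d and 0.81 for Tcrg-C1 to 1.56 for Trac and 2.06 for Gzmb. In the authors' deposited table, the smallest p-value among the members was 0.123, for Tcrg-C1, with a q-value of 0.684.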

How the data were processed

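RNA abundance was measured in the colon of mice of 2 genotypes, from total RNA read as single-end reads, per the labels' protocols. The submitters' processing notes name CASAVA, kallisto, sleuth and the build mm10, without versions or settings. The authors deposited, per transcript and library, a never-negative signal, which is not a count. The ln difference between the authors' mean and this abundance rose with ln transcript length by a slope of 1.19 over 14706 transcripts, as it would for values divided by length. Per the file headers, the deposited table also holds a p-value and a q-value for each transcript, a log2 fold and a natural log mean.

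Of 12 columns of per-sample values, 1 matched no sample title and was not used, and 1 Il10-/- sample (replicate 4) had no matching column. After 866 repeated rows were dropped, 113193 transcripts were summed to 35688 genes. Limma (version 3.58.1, R 4.3.3) with an intensity trend and robust moderation was fitted to log2(value + 0.5) for the 13561 genes that exceeded 1 in 5 or more samples. Members under this filter were fitted with all 26147 genes that have any value over 0. P-values are two-sided and adjusted by Benjamini-Hochberg with a threshold of 0.05. Log2 fold changes understate the change of low genes. Single contrasts used an exact two-sided permutation test over 462 assignments, whose smallest p is 0.00216. Where a symbol had 2 gene identifiers, the more abundant was used. Both tests were checked on simulated data. Python 3.11.15, pandas 2.3.3, numpy 2.4.6, scipy 1.17.1 and matplotlib 3.10.9 were used. Coordinates and transcript lengths come from GENCODE release M21, which matched 96.6% of transcript identifiers.

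Each sample is 1 animal per the series' design text. Replicates are numbered in accession order and pair nothing. The members and gene lists were chosen with earlier results of these data known. Named genes are the members, up to 4 tested genes of smallest p of each list, and the 8 genes most like the CD3 genes; not every gene this rule names is reported here. Cd247, Cd8b1, Prf1, Gzmm, Ncr1, Ms4a1, Ptcra, Tmigd1 and the gamma-delta constant genes that are no members were named after their values were seen. Alternatives tried were other pseudocounts, filters, scalings, moderation, leaving out samples and the name digit.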

Additional observations from a re-analysis of the deposited data

Results flagged for a closer look

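Within each genotype, the highest and lowest colon were set against the rest for each of the 10 genes and for the Trac minus Tcrg-C1 contrast, 22 groups of values in all. Chance marks about 1 in 20 such groups. Trac in Il10-/- colons was marked because replicate 1, at 3.06, stood far above the other 4, which lay between 0.483 and 0.787. Its gap to the nearest colon was 0.790 of the whole range on the log2 scale, where 0.71 is the critical value for 5 samples. The same colon had the highest B cell sum of its group, 35.2. Cd4 in Il10-/- colons was marked because replicate 6, at 0.131, stood below the other 4, which lay between 0.577 and 0.662. Its gap was 0.875 of the range.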

How the results depend on the processing

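The 10 genes gave 242 values under the alternatives, of which 238 kept their direction and their side of the threshold. The adjusted p of limma lay between 0.253 and 1.0. The value of Trbc1 reversed to -0.22 without the 2 colons highest in B cell genes and to -0.17 without the 3 highest (with Il10-/- replicate 1), both chosen after seeing the data. Tcrg-C1 and Cd8a passed 0.05 in the exact permutation test, which is not adjusted over genes.

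Limma called 0 genes with all samples, and from 0 to 2 when 1 colon was left out. Without Il10-/- replicate 2 it called Tnfrsf1a and Il18, and with quantile normalization it called 1, Tnfrsf1a. The number of genes under an unadjusted p of 0.05 was 1131, and it was 2458 without Il10-/- replicate 1, 1727 without replicate 2 and 482 without replicate 6. There were 142 among names with 1, 243 with the name digit as a covariate and 704 without the 2 colons highest in B cell genes. Equal library totals moved the median of all tested genes to 0.19 on the log2 scale.

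Trac minus Tcrg-C1 gave differences between -0.10 and 0.42 with 1 colon left out: -0.09 without Il10-/- replicate 3 and -0.10 without Il10-/- Tnfr1-/- replicate 2. It was -0.22 without the 2 colons highest in B cell genes, and 0.77 among names with 1. Over its 19 alternatives the exact permutation p lay between 0.367 and 0.914. No paired analysis was possible because the replicate numbers follow the order of the samples and mark no shared animal, litter or batch. With values that are not counts, depth is unknown, and the low coreceptor genes and segments cannot be given a counting error.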

Other observations

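The delta variable segment Trdv4, chosen after its values were seen, ran against the receptor constant genes. It was at 3.10, 0.645, 0.534, 2.41 and 2.80 in Il10-/- colons and at 0.155, 0.903, 0.63, 0.868, 0.256 and 0.136 in Il10-/- Tnfr1-/- colons. The groups overlapped, since Il10-/- replicates 2 and 3 lay among the Il10-/- Tnfr1-/- values. The gamma variable segments Tcrg-V7 and Tcrg-V4, also chosen afterwards, were listed at 0 in all 5 Il10-/- colons. Tcrg-V7 had 0.262, 0.227, 0.743 and 0.394 in Il10-/- Tnfr1-/- replicates 2, 3, 5 and 6, and Tcrg-V4 had 0.195, 0.844, 0.117, 0.415 and 0.440 in replicates 2 to 6. The beta variable segment Trbv25, likewise chosen afterwards, also tended to be lower in Il10-/- Tnfr1-/- colons, with overlap. It was at 2.48, 0, 0.589, 1.23 and 0 in Il10-/- and at 0, 0.598, 0, 0.359, 0 and 0 in Il10-/- Tnfr1-/- colons.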
